A study of Mus musculus with 416 samples.

Results

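Ribosomal protein genes encode the protein parts of the cytosolic ribosome, and 55 of them, 38 of the large and 17 of the small subunit, were followed here through S phase of single cells of early mouse embryos. The members are a list of gene names whose rule uses no measured value, although the list was drawn up with earlier results of these data known. Each gene was placed in the 50-kb bin that holds the midpoint of the gene in GRCm38. All 55 had at least 10 measured cells in each of 6 groups, so none was left out, out of 19410 autosomal protein-coding genes that met the same condition. Each member had a bin of its own. The 55 bins lay in 54 different 1-Mb windows on 18 chromosomes, with 11 on chromosome 7, 6 on chromosome 11 and 5 on chromosome 9.

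Ribosomal proteins are made in amounts that match the ribosomal RNA, and their genes are among the most strongly and steadily transcribed in dividing cells. The time in S phase at which a region is copied is its replication timing, and broadly transcribed, gene-rich regions are known to be copied early in most mammalian cells. RIF1 is a chromatin protein that is known to hold back the firing of replication origins, in part by bringing protein phosphatase 1 to them.

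All embryos had the genotype (C57BL/6J xCBA) x DBA/2J. As zygotes, 17 to 18 h after hCG, they were injected with siControl (called siCont) or with siRif1, an siRNA against Rif1, each at 20 µM, and they were cultured in KSOM to the 4-cell, 8-cell or morula stage. Each siRNA was 1 product, so a second siRNA against Rif1 was not analysed here, and no RNA or protein was measured that would show how far Rif1 was lowered. Single blastomeres were taken at several times of S phase, and their DNA was amplified with a barcode for each cell. States were given for 299 of the 416 labelled cells. Of these, 49 siCont and 51 siRif1 cells came from the 4-cell stage, 60 and 50 from the 8-cell stage, and 44 and 45 from morulae.

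For each cell and bin the deposited value was 0, 1 or missing, and 1 is read here as replicated. That reading rests on gene-bearing bins, which had the higher mean share of 1 in all 6 groups (for instance 64.2 against 43.1% for other bins in siCont morulae). The replicated share of a gene is the percent of measured cells with state 1 in its bin. The centred share is that percent minus the mean over all 46015 used bins of the same group (43.02 to 50.5%), in percentage points. A gene with a positive centred share was copied in more cells than the average bin, and is called early. No label ties a cell to an embryo, so each group counts as 1 sample and no test between groups was possible. Intervals on shares are exact 95% Clopper-Pearson intervals, which treat cells as independent and cover counting error only.

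Cells of a group were not alike, and in most groups cells with neighbouring numbers in the labels resembled each other. The lead of a cell is the percent of member bins it had replicated minus the percent of all used bins it had replicated, so that a lead of 0 means no preference for these genes. Leads of cells that follow each other in number correlated by 0.33 to 0.49 in 5 groups and by -0.15 in siCont morulae. In the siRif1 8-cell group the 25 cells numbered 1 to 34 had a median lead of 15.3 points (20 positive), and the 25 cells numbered 36 to 64 had one of -9.30 (6 positive). In the siCont 8-cell group the medians of the lower and upper numbers were 24.9 and 10.6 points. The labels do not say whether the numbers follow embryos, plates or the order of collection, so values from the lower and from the upper numbers stand beside the main results. Treatment cannot be told apart from such blocks where they differ as much as the treatments do.

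The genes are short and lie in crowded DNA. Their median length was 3352 bp (1066 to 11774), against 17491 bp for all protein-coding genes. A member had a median of 20 protein-coding genes within 500 kb of its bin (3 to 63), against 13 for all bins with a gene midpoint and 5 for all used bins. In 22 of the 55 genes the RefSeq annotation places small nucleolar RNA genes, 45 in all, whose products guide the chemical modification of ribosomal RNA.

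Start sites show sequence features that some of these genes share. RefSeq promoters of GRCm38.p6, taken as the first listed start of each gene, were at hand for 44 of the 55. Other starts of a gene were not searched, so the shares below hold for the listed start only. The motif known from vertebrate ribosomal protein genes is a run of C and T across the start, the sequence through which their messenger RNAs are held back when growth signals fail. A run of at least 7 pyrimidines spanned the start in 15 of 44 members (34.1%) and in 768 of 16457 protein-coding genes (4.67%). The letters CCGGAAG, the core bound by ETS-family factors, were found on either strand of the 250 bases before the start in 13 of 44 members (29.5%) and in 9.38% of all genes. The letters TATAAA were in the last 50 bases before the start of 0 of 44 members and 3.63% of all genes. The sequences below run 5′ to 3′ from 40 bases before the start to 10 bases after it, with the pyrimidine run that spans the start in capitals. They are shown for some of the genes that stand at the ends of the timing results. Rpl7a, Rps7 and Rps18 have among the most negative morula shifts, and Rpl22 and Rps2 among the most negative 8-cell shifts. Rpl31 has the most positive 8-cell shift, and Rpl15 the latest control timing. Other genes at such ends are not printed. No run crosses the listed start of Rpl24, Rpl18, Rpl26, Rpl23, Rps19 or Rps23. A run of at least 7 bases crosses that of Rps9, Rps24, Rps21 and Rpl38. A link between run and timing was not tested.
Rpl7a, chr2:26910767-26910816, plus strand: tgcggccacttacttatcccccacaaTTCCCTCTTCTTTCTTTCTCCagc
Rpl15, chr14:18270977-18271026, minus strand: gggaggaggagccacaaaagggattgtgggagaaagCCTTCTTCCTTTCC
Rps18, chr17:33955656-33955705, minus strand: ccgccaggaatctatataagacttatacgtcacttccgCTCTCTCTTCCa
Rpl31, chr1:39367811-39367860, plus strand: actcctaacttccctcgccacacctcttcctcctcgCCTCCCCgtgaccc
Rps7, chr12:28635944-28635993, minus strand: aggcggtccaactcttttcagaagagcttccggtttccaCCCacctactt
Rps2, chr17:24720023-24720072, plus strand: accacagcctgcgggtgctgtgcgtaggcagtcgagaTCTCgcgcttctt
Rpl22, chr4:152325686-152325735, plus strand: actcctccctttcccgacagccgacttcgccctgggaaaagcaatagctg
The run spanned 21 bases in Rpl7a, 17 in Rpl15, 11 in Rps18, 7 in Rpl31, 4 in Rps2 and 3 in Rps7, and none was found across the listed start of Rpl22. In Rpl15 the run goes on past the last printed base. Replication states cannot be read at this scale. No stretch of equal states inside a chromosome was shorter than 5 measured bins, or 250 kb, in any of the 6 groups, so a gene's value describes its surroundings.

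In control embryos the ribosomal protein genes were early, and more so at each later stage. The median member was replicated in 57.1% of siCont cells at the 4-cell stage (30.6 to 77.6% over the 55 genes), in 69.5% at the 8-cell stage (43.3 to 85%) and in 77.3% in morulae (56.8 to 86.4%). Centred, these medians were 10.6, 20.3 and 27.9 points. The control profile widened over the same stages, with an SD of centred shares over all used bins of 13.7, 19.8 and 25.8 points. As percentile ranks among all used bins the member medians were 77.6, 81.2 and 83.9, a smaller change than on the centred scale. The number of members above the group mean was 46, 52 and 55 of 55, where 49.2, 52.8 and 54.6% of all used bins and 67.8, 76.6 and 80.2% of bins with a gene midpoint lay above it. By the mean of the 3 control stages, 29 of 55 members (52.7%) were in the earliest of 5 equal classes of bins, against 38.4% of gene bins, and 0 were in the latest.

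The gain in controls from the 4-cell stage to the morula was shared widely. The centred share was higher in morulae for 53 of 55 genes (54.8% of all used bins), by a median of 14.8 points against 10.7 for gene bins, and 12 members gained 20 points or more (13.3% of bins). The step from 4 to 8 cells had a median of 7.58 points against 5.23 for gene bins and was positive for 48 genes (53.7% of bins). The step from 8 cells to the morula had a median of 6.33 points against 4.66 for gene bins and was positive for 39 (49.7% of bins). The shares in brackets are of all used bins. How many gene bins rose, or rose by 20 points, was not counted. Rps3, which lines the entry of the messenger RNA channel, had the largest step from 4 to 8 cells of the members (36.2 points). It was replicated in 15 of 49 control cells at the 4-cell stage (30.6%, interval 18.2 to 45.4), 41 of 59 at the 8-cell stage (69.5%, 56.1 to 80.8) and 33 of 44 in morulae (75%, 59.7 to 86.8). Its interval at the 4-cell stage is apart from both later ones, but no member had a lower 4-cell control share, so it is an extreme among 55 genes. How many bins have control intervals apart between stages was not counted.

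The earliest members in controls were Rpl27, Rpl26, Rpl35a, Rpl32 and Rpl9, all of the large subunit. Rpl27 was replicated in 36 of 49, 51 of 60 and 37 of 44 control cells at the 3 stages (73.5, 85 and 84.1%). Rpl26, known for binding the messenger RNA of p53, had 37 of 49, 50 of 60 and 36 of 44 (75.5, 83.3 and 81.8%), and Rpl35a, a gene mutated in Diamond-Blackfan anaemia, 35 of 49, 49 of 60 and 36 of 42 (71.4, 81.7 and 85.7%). Rpl32 and Rpl9 were replicated in 38 of 49 and 37 of 49 cells at the 4-cell stage, the highest shares there together with those of Rpl8 and Rpl26. The mean centred shares of the 5 genes were 30.2 to 32.5 points, closer to each other than the counting error of a share (binomial SD of 5.99 to 6.96 points for the median member in controls), so their order is not resolved.

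The latest members were Rpl15, Rps9, Rps24, Rps21 and Rpl38. Rpl15, a large subunit protein gene, was replicated in 17 of 49, 29 of 60 and 25 of 44 control cells (34.7, 48.3 and 56.8%). Rps9, whose protein lies near the messenger RNA entry, had 19 of 49, 26 of 59 and 26 of 44 (38.8, 44.1 and 59.1%). Rps24, another Diamond-Blackfan anaemia gene, had 19 of 49, 35 of 60 and 25 of 44 (38.8, 58.3 and 56.8%). Rpl38, whose loss in mice is known to alter translation of Hox messenger RNAs and the pattern of the vertebrae, had 22 of 49, 30 of 60 and 29 of 44 (44.9, 50 and 65.9%). Rps21 had 22 of 49, 26 of 60 and 30 of 44 (44.9, 43.3 and 68.2%). Rpl15 (-1.76 points) and Rps9 (-1.07 points) were the members with a negative mean centred share. The order among Rpl15, Rps9, Rps24, Rps21 and Rpl38 (-1.76 to 5.22 points) is again within counting error, while the gap to the earliest 5 is not.

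Small subunit genes were later than large subunit genes in controls. Their median replicated share was 51.02, 65 and 68.2% at the 3 stages, against 61.2, 71.7 and 79.5% for the large subunit. The 2 subunits have 17 and 38 genes and their ranges overlap. Of the 5 latest genes 3 are of the small subunit, and of the 5 earliest none is.

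**Figure D1:**
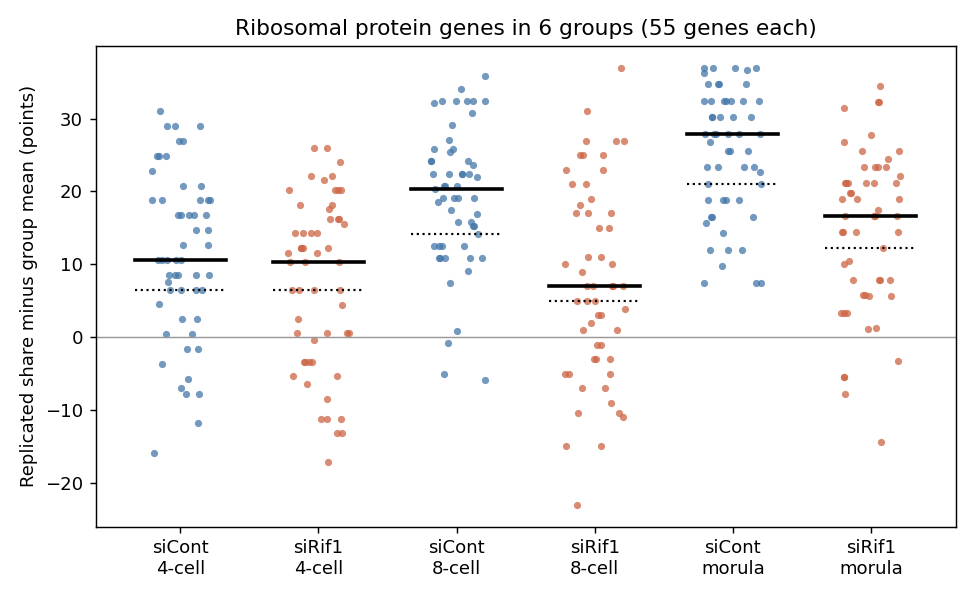
Centred replicated share (percent of cells replicated minus the group mean, in points) of each of the 55 ribosomal protein genes in siCont (blue) and siRif1 (orange) cells at 3 stages. Each point is 1 gene, solid bars are medians over the genes and dotted bars are medians of all bins with a protein-coding gene midpoint; the solid bars climb from 10.6 to 27.9 points in siCont and stand at 10.3, 6.98 and 16.7 points in siRif1.

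Over all siRif1 cells the same genes were less early than in controls at the 8-cell stage and in morulae. The median member was replicated in 60.8% of siRif1 cells at the 4-cell stage (33.3 to 76.5%), 50% at the 8-cell stage (20 to 80%) and 66.7% in morulae (35.6 to 84.4%). Centred medians were 10.3, 6.98 and 16.7 points, and 40, 38 and 50 members lay above the mean (50.3, 49.8 and 51.8% of all used bins, and 64.8, 64 and 74.5% of gene bins). From the 4-cell to the 8-cell stage the median change was 0.731 points, with 29 of 55 genes higher (51.4% of bins). From the 8-cell stage to the morula it was 7.27 points, with 37 of 55 higher (47% of bins). From the 4-cell stage to the morula it was 8.19 points, with 42 of 55 higher (48.5% of bins), against 14.8 points in controls. Gene bins had median changes of 0.337, 4.16 and 4.14 points in siRif1 over these same steps. The spread over genes at the 8-cell stage was wider in siRif1 (SD 13.4 points) than in siCont (9.58), although over all bins it was narrower (14.7 against 19.8).

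The shift of a gene is its centred share in siRif1 minus that in siCont, so a negative shift means relatively later in siRif1. Median shifts of the members were -4.36 points at the 4-cell stage (-24.1 to 21.9), -11.5 at the 8-cell stage (-35.5 to 16.2) and -10.7 in morulae (-30.1 to 14.9). Negative shifts were found for 39, 45 and 51 of 55 members (70.9, 81.8 and 92.7%), where 50.2, 47.9 and 50.9% of all used bins and 56.9, 68.8 and 72.8% of gene bins were negative. In the gene-densest of 5 classes of used bins, by protein-coding genes within 500 kb, 67, 81.2 and 80.35% were negative. Median shifts of gene bins were -1.51, -5.82 and -6.80 points. Counting error of a single member's shift (binomial SD) had a median of 9.76, 9.06 and 9.45 points, while the SD of shifts over members was 9.63, 12.2 and 8.47. The spread over genes was thus above counting error at the 8-cell stage and about equal to it at the other 2. On percentile ranks in place of centred shares the morula median was -3.80, with -7.77 and -15.1 at the 4-cell and 8-cell stages.

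The size of these medians depended on which cells were taken. With only the lower-numbered siRif1 cells the 8-cell median was -3.24 points and 32 of 55 members were negative, and with only the upper-numbered ones it was -20.8 points and 53 were negative. The lower and upper siCont numbers gave -13.6 and -8.66 points. At the 4-cell stage the direction itself was not kept, with 0.707 points (24 negative) from the lower siCont numbers and 2.61 points (20 negative) from the upper siRif1 numbers, against -8.17 from the upper siCont and -12.9 from the lower siRif1 numbers. In morulae the median stayed negative, at -14.8 and -5.38 points from the lower and upper siRif1 numbers and -9.18 and -12.8 from the lower and upper siCont numbers, with 39 to 50 members negative. How many of all used bins or gene bins were negative with these cells was not counted. These counts therefore do not separate the members from other bins.

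Early bins in general had negative shifts after the 4-cell stage, so each member was set against bins of like control timing. These were all used bins in the same of 20 classes of control timing, defined at the 2 other stages. The median of a member's shift less that reference was -4.13 points at the 4-cell stage, -4.69 at the 8-cell stage and -2.39 in morulae. They were below it in 35, 35 and 34 of 55 cases (63.6, 63.6 and 61.8%), where 50.6, 49 and 49.3% of all used bins were below theirs. Of gene bins 55.3, 56.7 and 58.2% were below theirs. Bins in the gene-densest of 5 classes were so in 63.6, 69.8 and 62.9%, with median differences of -3.13, -5.48 and -2.6 points. The members were thus not set apart from bins in gene-dense surroundings by this measure. With gene bins alone as reference the member medians were -2.83, -2.55 and -1.78 points. With timing classes split by gene density they were -2.16, -2.5 and -1.97. The reference from all used bins had a median of -8.60 points for the members at the 8-cell stage and -8.95 in morulae. The 8-cell median difference was -11.9 with cells weighted equally over classes of progress, -8.05 on percentile ranks and -9.40 with classes drawn from both groups of that stage. The 4-cell one was -0.962 with the weighted cells.

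A shift of 20 points, about double its counting error, was taken as large. At the 8-cell stage 13 of 55 members (23.6%) had a shift of -20 points or lower and 0 had 20 points or higher, where 6.43% of all used bins and 14.4% of gene bins were at or below -20 and 3.95% of bins and 1.19% of gene bins were at 20 or above. In the gene-densest of 5 classes of bins 24.5% were at or below -20 and 0.49% at 20 or above. The member share was thus near that of gene-dense surroundings. In place of 13, the count was 24 with cells weighted equally over classes of progress (9.97% of used bins and 23.1% of gene bins), 26 on percentile ranks (13.8 and 24.7%) and 25 on raw shares (14.2 and 27.9%). It was 5 with the lower-numbered siRif1 cells alone (3.45 and 4.53%) and 32 with the upper-numbered ones (17.7 and 36%), so the large 8-cell shifts rest mostly on the siRif1 cells numbered 36 to 64. With the lower and upper siCont numbers it was 22 (9.26 and 20%) and 9 (6.37 and 12.4%). Rpl22, which encodes an RNA-binding large subunit protein that ribosomes can do without, had the most negative shift. It was replicated in 37 of 60 control cells (61.7%, interval 48.2 to 73.9) and 10 of 50 siRif1 cells (20%, 10 to 33.7), a shift of -35.5 points, or -28.5 against bins of like timing. Rpl18, of the large subunit, was replicated in 45 of 59 and 19 of 50 cells (76.3 and 38%, shift -32.1). Rps2, whose protein lies at the messenger RNA entry, was replicated in 39 of 60 and 14 of 50 (65 and 28%, shift -30.8). The intervals of the 2 treatments do not meet for any of these 3 genes.

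Rpl26 was among the earliest control genes at the 8-cell stage and near the middle of the members in siRif1, with 50 of 60 against 23 of 49 cells (83.3 and 46.9%, shift -30.2). Rpl23, whose protein is known to bind MDM2 and so to link ribosome assembly to p53, had 41 of 60 against 16 of 49 (68.3 and 32.7%, shift -29.5). Intervals of the raw shares were apart, with siRif1 lower, for 11 members in all (5.35% of used bins) and with siRif1 higher for 0 (0.0978% of bins). The raw shares carry the lower mean of the siRif1 group (43.02 against 49.2% in siCont), which the shift removes.

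The other end at the 8-cell stage was held by genes with few neighbours. Rpl31, whose protein sits at the exit of the nascent chain, was replicated in 36 of 60 control and 35 of 50 siRif1 cells (60 and 70%, shift 16.2). Rpl24, the gene altered in the Belly spot and tail mouse, was replicated in 36 of 60 and 34 of 50 (60 and 68%, shift 14.2), and Rpl37a in 37 of 60 and 32 of 50 (61.7 and 64%, shift 8.51). The intervals of the 2 treatments overlap for each. Rpl7 and Rps23, the latter part of the decoding centre, followed with 4.51 points each. Rpl5, which carries 5S ribosomal RNA into the ribosome and also binds MDM2, was early in both treatments. It was replicated in 49 of 60 control and 40 of 50 siRif1 cells (81.7 and 80%, shift 4.51), which is 15.4 points above bins of like timing.

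**Figure D2:**
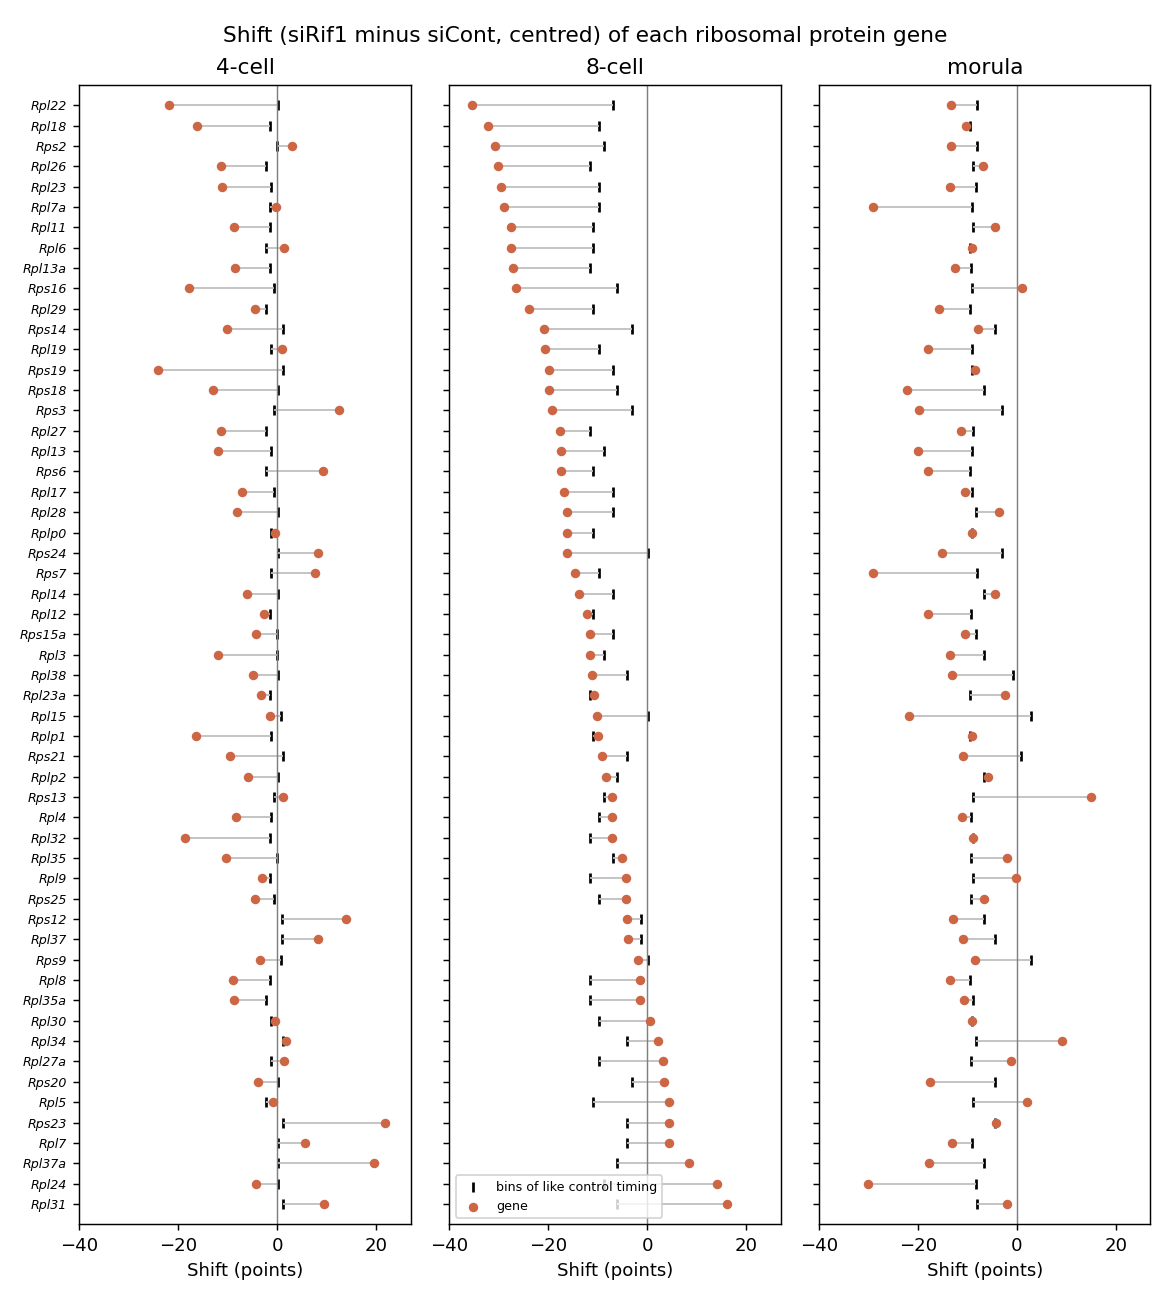
Shift of each ribosomal protein gene at 3 stages (siRif1 minus siCont centred share, in points; orange points) beside the mean shift of all bins of like control timing (black ticks). Points lie left of 0 for 39, 45 and 51 of the 55 genes, and left of their tick for 35, 35 and 34.

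How crowded a gene's surroundings were went along with its 8-cell shift. The 13 members at -20 points or lower had 20 to 63 protein-coding genes within 500 kb (median 28), and the 10 members with a positive shift had 3 to 17 (median 10), so those ranges do not overlap. Across members the correlation of gene number with shift was -0.53 at the 8-cell stage and -0.44 at the 4-cell stage, and -0.03 in morulae. Over all 46015 used bins the 3 values were -0.51, -0.20 and -0.41, in stage order 8-cell, 4-cell and morula. These correlations describe the profiles, since neighbouring bins share states, all points of a stage share the same cells, and gene-rich bins also differ in base composition.

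A split of the members at 20 genes, their median, was made after these values were seen. At the 8-cell stage 29 of 29 members with 20 or more genes nearby had a negative shift (81.1% of gene bins of that density), with a median of -19.8 points against -13.7 for such gene bins. Of the 26 members with fewer genes 16 were negative (63.3% of such gene bins), with a median of -4.65 points against -3.51. The control shares of the 2 classes were close, 68.3 and 70%, whereas the siRif1 shares were 44 and 60%. Against bins of like timing the medians were -10.8 points for the crowded members and 3.51 for the others. On percentile ranks in place of centred shares the median of the less crowded members was 1.07, on the other side of 0, and that of the crowded members -30.4. The crowded members had the lower median in the lower and in the upper cell numbers of either group. Those cells are parts of the data in which the split was chosen, so this is no independent check of it. With the lower siRif1 numbers the 2 medians were -5.35 and 3.92 points, with the upper ones -32.8 and -9.76, and with the lower and upper siCont numbers -24.3 and -5.64, and -14.1 and 0.338.

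The split was narrower at the other stages. At the 4-cell stage 25 of 29 crowded members were negative (71.6% of such gene bins) with a median of -8.52 points, and 14 of 26 others (50.4%) with a median of -0.594. In morulae 28 of 29 (80.1%) and 23 of 26 (69.6%) were negative, and the medians were -11.3 and -10.5 points. The morula shift of a ribosomal protein gene thus hardly differed with gene number, while over all gene bins it was -8.87 points in crowded and -6.43 in other surroundings.

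**Figure D3:**
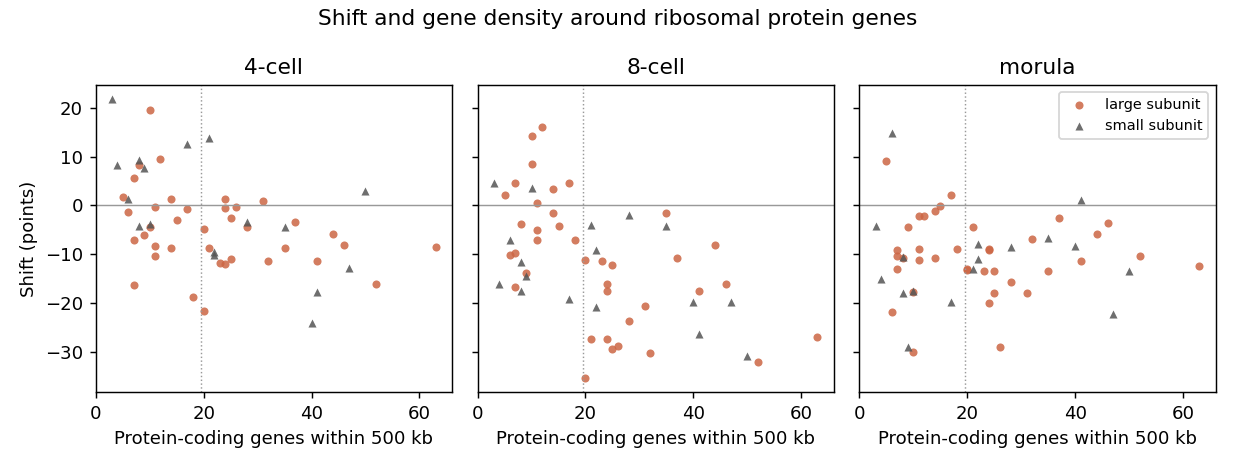
Shift of each ribosomal protein gene (points) against the number of protein-coding genes within 500 kb of its bin, for large subunit genes (orange circles) and small subunit genes (grey triangles) at 3 stages. The dotted line separates genes with fewer than 20 neighbours from those with 20 or more; at the 8-cell stage all 29 genes to its right lie below 0, and in morulae 28 of them and 23 of the 26 to its left do.

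In morulae 6 of 55 members (10.9%) had a shift of -20 points or lower, where 5.6% of all used bins and 9.52% of gene bins did, and 0 members were at 20 or above (6.41% of bins and 1.43% of gene bins). Rpl24 had the most negative value, replicated in 32 of 42 control cells (76.2%, interval 60.5 to 88) and 21 of 45 siRif1 cells (46.7%, 31.7 to 62.1), a shift of -30.1 points. Its 8-cell shift was 14.2 points, so it stood near opposite ends of the list at the 2 stages. Rps7, a small subunit protein gene whose product also binds MDM2, was replicated in 38 of 44 and 26 of 45 cells (86.4%, 72.7 to 94.8, and 57.8%, 42.1 to 72.3, shift -29.2). It was the 1 member whose raw intervals were apart with siRif1 lower in morulae (0.541% of bins), and 0 had siRif1 higher (1.99% of bins).

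Rpl7a, of the large subunit, was replicated in 37 of 44 control and 25 of 45 siRif1 morula cells (84.1 and 55.6%, shift -29.1), and had a shift of -28.8 points at the 8-cell stage as well. Rps18, in the head of the small subunit, was replicated in 33 of 44 and 24 of 45 (75 and 53.3%, shift -22.2). Rpl15, already the latest in controls, was replicated in 25 of 44 and 16 of 45 (56.8 and 35.6%, shift -21.9), which is 24.7 points below bins of like timing (-24.7). That was the lowest siRif1 share of all members in morulae.

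Few members were earlier in siRif1 morulae. Rps13, of the small subunit, was replicated in 29 of 44 control and 35 of 43 siRif1 cells (65.9%, interval 50.1 to 79.5, and 81.4%, 66.6 to 91.6, shift 14.9), and Rpl34 in 27 of 44 and 32 of 45 (61.4 and 71.1%, shift 9.16). Rpl5 (2.09 points) and Rps16 (1.05 points) were near 0, and Rpl9 had -0.182. Rpl34 was the 1 member with a positive shift at all 3 stages, with 1.77 and 2.18 points at the earlier 2. Intervals of the 2 treatments overlap for all 5.

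At the 4-cell stage the shifts were smaller, and the median of -4.36 points was -0.440 on raw shares and -1.35 with cells weighted equally over classes of progress. A shift of -20 points or lower was found for 2 members (1.24% of all used bins and 2.49% of gene bins) and of 20 or higher for 1 (1.36 and 1.11%), and no member's raw intervals were apart in either direction (0.013 and 0.23% of bins). On percentile ranks 12 members were at -20 or lower (14 and 16.6%). Rps19, the gene most often mutated in Diamond-Blackfan anaemia, was replicated in 32 of 49 control cells (65.3%, interval 50.4 to 78.3) and 23 of 51 siRif1 cells (45.1%, 31.1 to 59.7), a shift of -24.1 points. Rpl22 was next with 27 of 49 and 19 of 51 (55.1 and 37.3%, shift -21.8), and was thus at the low end at both early stages. Rpl32 (-18.7 points), Rps16 (-17.8) and the stalk protein gene Rplp1 (-16.4) followed, none of them past 20 points.

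Rps23 was the 1 member at 20 points or above at the 4-cell stage, replicated in 21 of 49 control and 35 of 51 siRif1 cells (42.9%, interval 28.8 to 57.8, and 68.6%, 54.1 to 80.9, shift 21.9). Rpl37a was replicated in 24 of 49 and 37 of 51 (48.98 and 72.5%, shift 19.6). Rps12, Rps3 and Rpl31 followed with 13.8, 12.5 and 9.53 points. Rps3, with its low 4-cell control share, had shifts of -19.3 and -19.8 points at the 8-cell stage and in morulae.

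The stages share no cells, so their shifts can be set side by side gene by gene. A shift was negative at all 3 stages for 34 of 55 members (61.8%), where this held for 19.9% of all used bins and 35.9% of gene bins. That count rests in part on the 4-cell sign. The 39 negative members there became 24 with the lower siCont numbers and 20 with the upper siRif1 numbers. The shift was negative at both the 8-cell stage and the morula for 43 members (34.8% of all used bins and 56.5% of gene bins). Across the 55 genes shifts correlated by 0.43 between the 4-cell and 8-cell stages, 0.17 between the 8-cell stage and the morula, and -0.09 between the 4-cell stage and the morula. The order of the genes was thus shared in part between the first 2 of these stages and hardly at all with the morula.

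Leads were also compared cell by cell. Median leads of siCont cells were 3.70 points at the 4-cell stage, 17.0 at the 8-cell stage and 29.02 in morulae, with a positive lead in 28 of 49, 47 of 60 and 40 of 44 cells. Median leads of siRif1 cells were 6.67, 4.26 and 15.4 points, with a positive lead in 33 of 51, 26 of 50 and 37 of 45 cells. The lowest, median and highest lead at the 8-cell stage were -16.5, 17.0 and 60.4 points in siCont and -24.3, 4.26 and 58.03 in siRif1, so the ranges overlap almost wholly and the middles differ. In cells with 20 to 80% of bins replicated the median leads over all bins with a gene midpoint were 4.85, 9.73 and 15.2 points in siCont and 3.32, 2.52 and 8.27 in siRif1, where the members had 3.70, 17.0 and 29.4, and 6.59, 3.93 and 15.6.

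The 2 treatments were not sampled equally over S phase. The siRif1 8-cell group had its furthest cell at 66.6% of bins replicated, against 97.4% for siCont. Cells were therefore also compared within the same class of progress. Among 8-cell blastomeres with 20 to 40% of bins replicated, the median lead was 22.99 points in 17 siCont cells and 3.93 in 17 siRif1 cells. It was 12.7 points in 24 and 4.64 in 21 cells between 40 and 60%, and 16.3 in 13 and -3.02 in 9 cells between 60 and 80%. In morulae the medians were 31.2 in 10 and 20.5 in 16 cells (20 to 40%), 31.01 in 24 and 21.6 in 13 (40 to 60%), and 19.9 in 8 and 5.42 in 14 (60 to 80%). The siCont median was the higher in each of these 6 classes. At the 4-cell stage it was lower than the siRif1 median in the 20 to 40% class (-1.77 in 15 against 13.7 in 12 cells) and higher in the 40 to 60% class (26.8 in 11 against 6.49 in 23 cells), with -0.0583 in 13 and -1.84 in 12 cells in the 60 to 80% class.

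Cells of a group differed more than counting of 55 bins would give. Over cells with 20 to 80% of bins replicated, the SD of the lead was 14.6 to 21.4 points in the 6 groups, and the median binomial SD 5.29 to 6.41. A cell's lead at the ribosomal protein genes followed its lead at all bins with a gene midpoint, with correlations of 0.88 to 0.96 across the cells of a group, which share each cell's profile. Leads below -10 points were found in 1 of 54 control and 11 of 47 siRif1 8-cell blastomeres in this range of progress, and leads above 30 points in 18 and 8. All 11 of the low siRif1 cells had numbers from 38 to 64. In morulae 0 of 42 control and 2 of 43 siRif1 cells were below -10, and 20 and 7 above 30. At the 4-cell stage 6 of 39 and 11 of 47 cells were below -10, and 10 in each group were above 30.

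**Figure D4:**
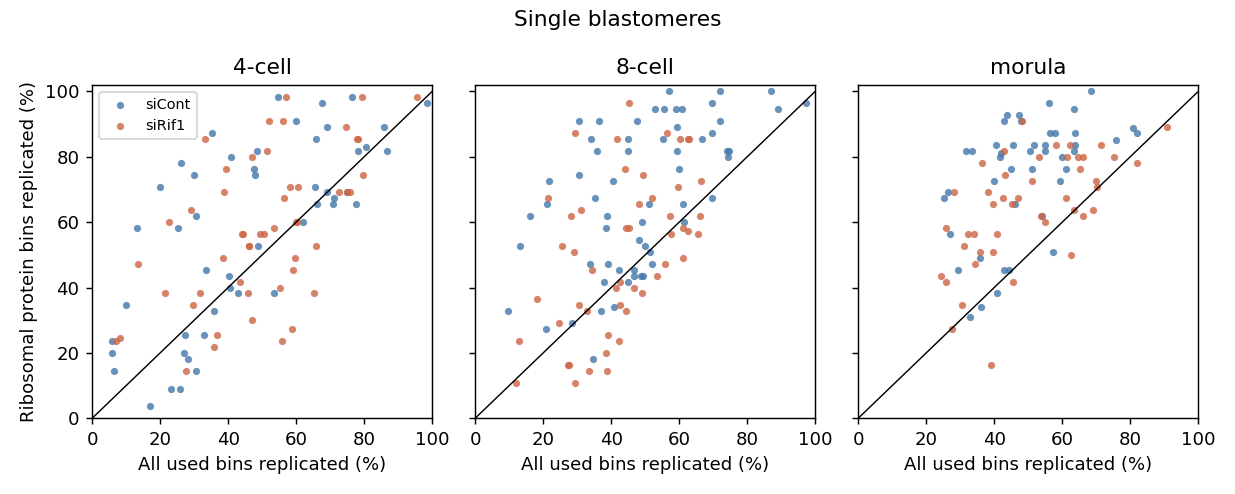
Percent of ribosomal protein gene bins replicated (vertical axis) against percent of all used bins replicated (horizontal axis) in each siCont (blue) and siRif1 (orange) blastomere at 3 stages. Points on the black line have no lead; 47 of 60 control and 26 of 50 siRif1 cells lie above it at the 8-cell stage.

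Around the genes the early timing formed a broad hill. The mean centred share in siCont was 11.3, 19.2 and 25.3 points at the gene bin at the 3 stages, and 0.897, 5.86 and 10.8 points at 1000 kb to one side. In siRif1 it was 7.61, 7.46 and 14.6 points at the gene and -0.956, -3.48 and 5.97 points at that distance. On the other side, 1000 kb away, siCont had 4.67, 10.9 and 16.8 points and siRif1 0.358, -0.472 and 8.81. At all 3 stages the siRif1 profile was thus below the siCont profile at the genes and 1000 kb from them on both sides. These profiles were not split by cell number.

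**Figure D5:**
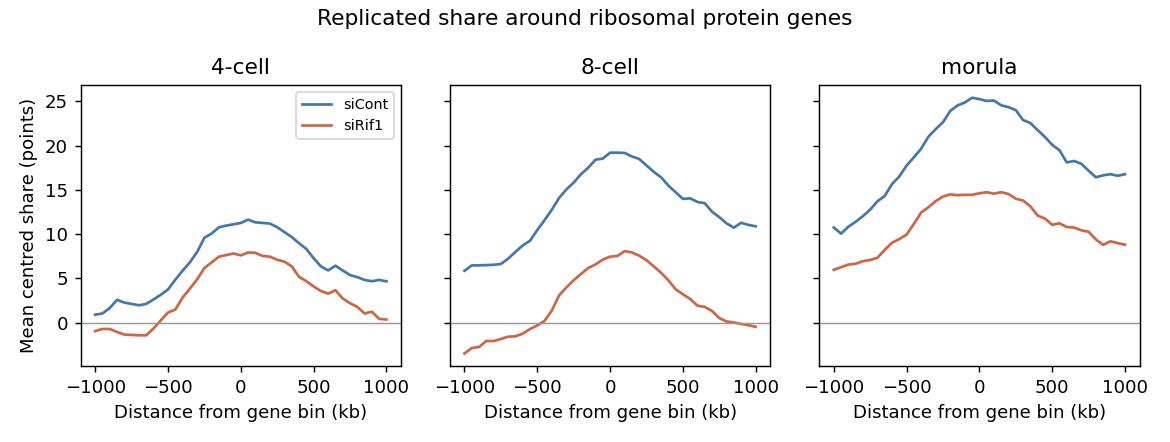
Mean centred replicated share (points) of bins up to 1000 kb on either side of the ribosomal protein gene bins in siCont (blue) and siRif1 (orange) cells at 3 stages. Each profile is highest within 100 kb of the gene bin, at which siCont stands at 11.3, 19.2 and 25.3 points and siRif1 at 7.61, 7.46 and 14.6.

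Other genes of the ribosome had values of the same kind. Of 35 further cytosolic ribosomal protein genes and paralogs, 29 had a used bin, 2 of them in a member's bin. Their median shifts were -1.91, -11.8 and -13.2 points at the 4-cell stage, the 8-cell stage and the morula. Of the 29 genes 17, 23 and 24 were negative (58.6, 79.3 and 82.8%, against 56.9, 68.8 and 72.8% of gene bins). Rps10 was replicated in 43 of 60 control and 12 of 50 siRif1 8-cell blastomeres (shift -41.5) and Rps15 in 37 of 60 and 8 of 49 (shift -39.2), both lower than any of the 55 members. Rpl7l1, a paralog of Rpl7, was among the lowest at the 4-cell stage (-19.2), and Rps27a, which encodes ubiquitin fused to a ribosomal protein, in morulae (-20.1).

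Genes for other steps of making and using ribosomes were compared by their lists. At the 8-cell stage the median shift was -14.5 points for 78 mitochondrial ribosomal protein genes (65 negative), -9.82 for 95 ribosome assembly genes (77 negative), -13.8 for 20 RNA polymerase I genes (18 negative) and -15.2 for 53 translation factor genes (42 negative). Lists unrelated to ribosomes had -11.5 points for 47 proteasome genes (42 negative) and -8.82 for 36 genes of respiratory complex I (31 negative). Of all gene bins 68.8% were negative at that stage, and of bins in the gene-densest of 5 classes 81.2%. In morulae the 6 medians lay between -8.72 for the proteasome and -12.1 for complex I. All bins in the gene-densest of 5 classes had -11.7 and -8.92 points at these stages. The members' own -11.5 and -10.7 points were inside the range of these lists at both stages, and nothing in these medians sets ribosomal protein genes apart from other housekeeping genes.

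Ribosomal protein pseudogenes, for the most part copies of the same messenger RNAs inserted elsewhere in the genome, gave a contrast by position. Of 318 ribosomal protein pseudogenes 266 had a used bin, with a median of 9 protein-coding genes within 500 kb. Their median control shares were 53.6, 63.3 and 70.5% at the 3 stages, below the 57.1, 69.5 and 77.3% of the genes. Their median shifts were -0.714, -4.15 and -7.92 points, near the -1.51, -5.82 and -6.80 points of all gene bins. Of these pseudogenes 142, 168 and 183 were negative (53.4, 63.2 and 68.8%), against 56.9, 68.8 and 72.8% of gene bins. Within the 55 genes the large subunit had median shifts of -5.33, -11.0 and -10.6 points and the small subunit -3.48, -14.5 and -11.0, with ranges that overlap. The chromosomes that hold the most members were lower at the 8-cell stage, with a median of -16.2 points for the 11 genes on chromosome 7 and -19.1 for the 6 on chromosome 11. All gene bins of these chromosomes had medians of -7.14 and -15.8 points at that stage. In morulae the members on chromosome 7 had -8.41 points, against -11.3 for the members elsewhere. At the 8-cell stage the median was -11.0 points without chromosome 7 (44 genes) and -10.2 without chromosome 11 (49 genes).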

How the data were processed

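The deposited tables held 1 state (0, 1 or missing) for each 50-kb bin and cell, in no other unit. Tools named in the submitters' processing notes, with no role given, are R 4.2.3, bedtools, Picard, SAMtools and Bowtie2 2.5.1, and the build is GRCm38. How the authors turned reads into states, which cells they kept and the read depth are not given in the sources used here. Every column matched the title of 1 cell (0 columns unmatched), and 117 labelled cells without a column were not analysed here. No cell name was in more than 1 table, and the most alike pair of cells differed at 3.96% of the bins compared.

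Bins of chromosomes 1 to 19 with at least 10 measured cells in every group were used (46015 of 49264), and cells were measured at 88.1 to 94.1% of all bins. Genes and promoters came from RefSeq tables of GRCm38.p6. Shares, shifts, leads and like-timing references (20 classes) were computed with Python 3.11.15, numpy 2.4.6, pandas 2.3.3 and scipy 1.17.1. The arithmetic of the shift was checked on simulated states. These were drawn independently for each bin and cell, without the runs of equal states and the likeness of neighbouring cell numbers in the data. That check says nothing about the error of the shifts reported here. A shift of 20 points or more in size was counted as large.

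Members and lists were chosen with earlier results of these data known. Genes were named by rule: per stage the 5 lowest and 5 highest shifts and the 3 lowest and 3 highest differences from like timing, the 5 earliest and 5 latest in controls, and per stage the 2 lowest of the other cytosolic ribosomal protein genes. A few genes it named are left out of the text. Alternatives changed the cells, gene position, cell minimum, scale and reference.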

Additional observations from a re-analysis of the deposited data

Results flagged for a closer look

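Rpl24, a gene of the large subunit, had shifts of opposite direction at 2 stages under the same contrast. Its shift was 14.2 points at the 8-cell stage, where 60% of control and 68% of siRif1 cells had copied it, and -30.1 points in morulae, where 76.2 and 46.7% had. The difference between the stages was not tested, since each group is 1 sample.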

How the results depend on the processing

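The median shift of the members was negative under 10 of 12 alternatives at the 4-cell stage and 12 of 12 at the 8-cell stage and in morulae. Over 21 results and 174 alternatives, 132 values stayed within a counting interval or, for counts, within 1.5 times, 37 moved further and 5 changed sign. That interval pools the states of all the member bins and cells concerned as if independent, and reached 1.6 to 3.58 points to either side. Cells differed more than such counting gives, so these labels sort the values and do not measure the error of a median. Some of the 132 had no room to move. Every member bin had at least 42 measured cells in each group, so a minimum of 30 left all members in. The mean over all bins a gene overlaps gave identical values, since the genes are short. Raw shares leave the difference from like timing unchanged. The 30-cell minimum and the overlap mean are also among the 12 alternatives of each stage. With cells weighted equally over shared classes of progress, the 4-cell median was -1.35 (against like timing -0.962), the 8-cell median -17.2 (against like timing -11.9), the count at -20 or lower 24 in place of 13, and the median of crowded 8-cell members -28.2. With percentile ranks the medians were -7.77, -15.1 and -3.80 in stage order, the counts 12 in place of 2 (4-cell) and 26 in place of 13 (8-cell), the 8-cell median against like timing -8.05, and the 8-cell medians of crowded and less crowded members -30.4 and 1.07. With raw shares the 4-cell median was -0.440 with a count of 1, and the 8-cell median -17.7 with a count of 25, with -26.0 for crowded and -10.8 for less crowded members. With reference classes from both groups of the same stage the 8-cell median against like timing was -9.40. With only the lower or upper siCont cell numbers, the 4-cell median was 0.707 (24 negative) or -8.17, the upper numbers gave an 8-cell median of -8.66, the lower ones a count at -20 or lower of 22, and the medians of crowded members were -24.3 or -14.1, with 0.338 for less crowded ones from the upper numbers. With only the lower or upper siRif1 cell numbers, the 4-cell median was -12.9 or 2.61 (20 negative for the upper numbers), the 8-cell median -3.24 or -20.8 with counts of 5 or 32, the morula median -14.8 or -5.38, the crowded 8-cell median -5.35 or -32.8 and the less crowded one 3.92 or -9.76. The cause of these differences was not tested. The split by gene number and the split by cell number were added after seeing the data.

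No paired analysis was possible because each group is 1 sample, the cell numbers in the labels name cells and not shared embryos, and no result comes from a test. With 42 to 60 measured cells per member and group, single shifts under about 20 points cannot be told from counting error. Read depth per cell is unknown here.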
